A study of Mus musculus with 6 samples.

Results

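Complement is a cascade of soluble proteins, receptors and inhibitors, and 9 of its genes in the cochlea were the subject: C1qa, C1qb, C1qc, C3, C4b, Cfb, Cfp, Serping1 and C3ar1. Members were taken as every probe set that the platform annotation gave exactly 1 of these symbols. This found 7 of the 9 genes, out of 12393 genes with a probe set of 1 symbol, and 10 of the 22626 probe sets. C1qb had 3 probe sets, C3ar1 had 2, and C1qa, C1qc, Cfb, Cfp and Serping1 had 1 each. C4b shared its only annotated probe set with a related gene and is not reported, and C3 was not analysed here. Cochleae came from male mice of the inbred strain DBA/2J, which loses hearing with age, at 36 weeks (3 samples) and at 7 weeks (3 samples). No transgene or treatment is stated for either age, and all mice were kept on a nonpurified diet. The labels do not say how many animals gave a sample or whether animals were pooled, so p-values measure the spread between these samples, which may be technical. Total RNA of each sample was hybridised to 1 single-colour Affymetrix array.

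Complement can be started in several ways. In the classical pathway C1q, built of the products of C1qa, C1qb and C1qc, binds immune complexes or dying cells and sets off cleavage of C4 and C3. In the alternative pathway factor B, the product of Cfb, forms the enzyme that cleaves more C3, and properdin, the product of Cfp, stabilises that enzyme. C1 inhibitor, the product of Serping1, blocks the proteases that act after C1q, and C3ar1 encodes the receptor of the C3 fragment C3a. Most plasma complement is made in the liver, but tissue macrophages make C1q, leukocytes make properdin, and fibroblasts and other stromal cells make C1 inhibitor.

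All 6 arrays had median signals between 766.3 and 859.4 arbitrary units, and with so few arrays the precision of each value is limited. The cochlear fibrocyte markers Otos, Coch, Gjb2 and Gjb6 were bright on the arrays of both ages. Of 12 genes of hair cells and other cochlear epithelium with a probe set, 8 were above the filter, at the 44th to 90th percentiles. They included the hair cell genes Otof, Myo15, Tmc1 and Myo7a. Of these 8, 4 were lower at 36 weeks (Otog, Otof, Otoa and Tectb) and 0 higher. Among all genes, each by its brightest probe set above the filter, 17.2% were lower and 17.1% higher. Myo15, Tmc1 and Myo7a differed by 0.23, -0.079 and 0.35 on the log2 scale without passing. Pou4f3 and Slc26a5, also hair cell genes, were below the filter. That filter kept the 13575 probe sets whose mean log2(signal + 50) was above the 40th percentile, equal to a signal of 560.7. Of the members, 7 probe sets of 5 genes (C1qa, C1qb, C1qc, Serping1 and C3ar1) passed it. The probe sets of Cfb and Cfp and the dimmer C3ar1 probe set lay below it, at the 18th, 37th and 32nd percentiles. The nearest member inside the filter was a C1qb probe set at the 44th percentile. For the 3 dim probe sets the values come from the same model fitted to all 22626 probe sets. Each difference is the log2 value at 36 weeks minus that at 7 weeks, given with its standard error (SE) from 3 arrays of each age. A fold is the mean signal at 36 weeks divided by that at 7 weeks. Of the cochlear epithelium genes below the filter, Pou4f3 differed by 1.98 in the fit to all probe sets (limma adjusted p = 0.0415). Kcne1 differed by -3.44 (0.000129), and Slc26a5 and Tecta did not pass.

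Properdin transcripts were about 4-fold higher at 36 weeks and C1 inhibitor transcripts were lower, while no C1q or C3a receptor probe set passed the test. Of the 7 member probe sets above the filter, 0 were higher and 1, that of Serping1, was lower by limma at an adjusted p under 0.05. Among all probe sets above the filter, 16.2% were higher and 17.3% were lower. With unadjusted p under 0.05, 1 member probe set was higher (C1qa) and 1 lower (Serping1), against 21.6% and 22.0% of all probe sets above the filter. In the fit to all probe sets, 1 of 10 was higher (Cfp), against a background of 9.56%, and 1 was lower, against 9.99%. The median difference was 0.028 over the 7 members above the filter and 0.015 over all 13575 probe sets. Of all calls 48.3% were higher, and 35.4% when each array was centred on its own median, which lowered every difference by 0.10.

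**Figure D1:**
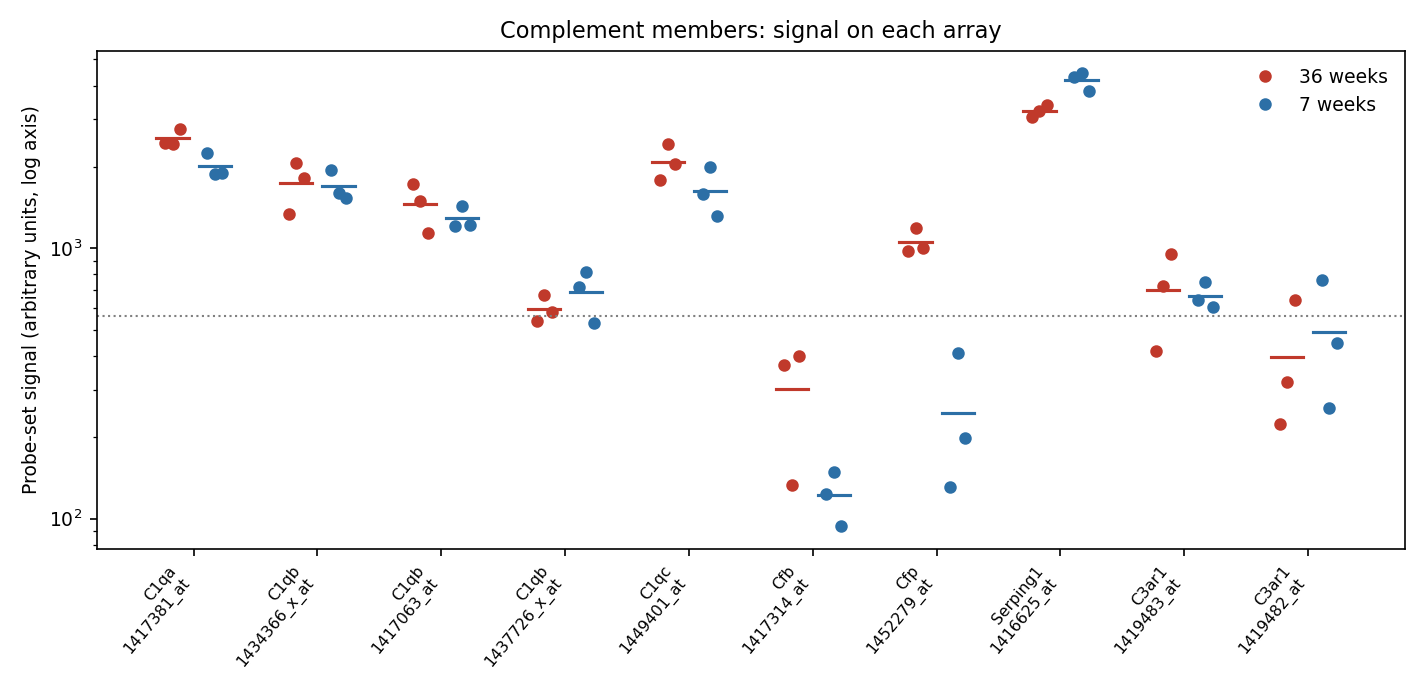
Signal of the 10 member probe sets on each array (log axis, arbitrary units), with 36 weeks left of 7 weeks; points are arrays, bars are means of 3, and the dotted line marks the filter at 560.7. The 3 arrays of 36 weeks lay above all arrays of 7 weeks for Cfp and C1qa and below them for Serping1.

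Cfp showed the largest difference of the members. Properdin is the positive regulator of the alternative pathway, and granulocytes and monocytes store and secrete it. The Cfp probe set (1452279_at) read 974.2, 1187.2 and 1003.3 at 36 weeks, against 131.3, 411 and 198.2 at 7 weeks. Every array of 36 weeks was more than double the brightest array of 7 weeks, so the ages did not overlap. All 9 pairs of an old and a young array were higher at 36 weeks, as for 19.2% of all probe sets. The mean was 1054.9 ± 115.5 at 36 weeks and 246.8 ± 146.1 at 7 weeks (SD, n = 3 each), a 4.27-fold ratio. The log2 difference was 2.00 ± 0.37 (SE), with a 95% confidence interval of 1.16 to 2.84 and a limma adjusted p of 0.00484 in the fit to all probe sets. Its signal at 7 weeks was dim, so the size depends on the offset, and it was 2.25 with an offset of 1. Cfp stayed out of the filtered fit because its mean over both ages was low.

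The Cfp start region is shown because it belongs to the member with the largest difference, and those of C1qb and C1qc because they are neighbours in a cluster. On chromosome 4 the protein-coding genes C1qb, C1qc and C1qa follow each other in the RefSeq table of GRCm38.p6. Each sequence runs 5′ to 3′ on the gene's strand (minus for all 3), from 250 bases before to 50 bases after the annotated start, in the C57BL/6J reference and not in DBA/2J. Cfp lies at chrX:20931506-20931805, C1qb at chr4:136886151-136886450 and C1qc at chr4:136892865-136893164 of GRCm38.p6. Capitals mark GAGGAA, the core recognised by PU.1, a transcription factor of myeloid cells, or its reverse complement.
Cfp: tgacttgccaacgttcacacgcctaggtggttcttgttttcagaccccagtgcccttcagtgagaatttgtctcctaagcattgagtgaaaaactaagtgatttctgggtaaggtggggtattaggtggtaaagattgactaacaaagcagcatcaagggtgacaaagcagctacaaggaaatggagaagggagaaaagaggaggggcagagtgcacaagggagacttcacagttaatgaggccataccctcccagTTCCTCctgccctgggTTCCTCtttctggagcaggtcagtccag
C1qb: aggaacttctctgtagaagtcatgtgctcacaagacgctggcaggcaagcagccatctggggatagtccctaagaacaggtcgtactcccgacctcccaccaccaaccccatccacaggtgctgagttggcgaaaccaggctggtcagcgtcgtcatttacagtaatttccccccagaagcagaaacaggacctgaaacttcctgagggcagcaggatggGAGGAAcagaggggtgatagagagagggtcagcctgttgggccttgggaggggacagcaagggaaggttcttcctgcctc
C1qc: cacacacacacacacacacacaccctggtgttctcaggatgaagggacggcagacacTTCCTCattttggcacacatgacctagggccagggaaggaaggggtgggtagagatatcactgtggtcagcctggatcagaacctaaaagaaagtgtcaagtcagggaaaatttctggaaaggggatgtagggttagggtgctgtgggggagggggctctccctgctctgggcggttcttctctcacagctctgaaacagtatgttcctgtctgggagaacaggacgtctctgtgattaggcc
RefSeq start regions were held for 4 of the 7 measured members. GAGGAA was found on either strand 2 times in that of Cfp, starting 7 and 23 bases after the start. It was found 1 time in that of C1qb, 30 bases before the start, and 1 time in that of C1qc, 193 bases before. The C3ar1 region, not shown, held 0 matches. The core was held by 28.3% of the 32851 start regions of all genes, so a match is common. The gamma-interferon activated site TTCNNNGAA, searched on both strands, was in 0 of the 4 regions and in 8.3% of all regions. The letters describe these windows only and show no binding.

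Cfb, which encodes the protease of the alternative pathway convertase, was dim. Its probe set (1417314_at) read 368.7, 133.3 and 401 at 36 weeks, against 123.1, 149.2 and 93.6 at 7 weeks. Replicates 1 and 3 of 36 weeks were higher than all young arrays, while replicate 2 lay among them. The log2 difference was 0.94 ± 0.43 (SE, 95% confidence interval -0.037 to 1.91), with a limma adjusted p of 0.173 in the fit to all probe sets. Leaving out 1 array at a time moved the value between 0.70 (adjusted p = 0.381, without replicate 3 of 36 weeks) and 1.35 (adjusted p = 0.0521, without replicate 2 of 36 weeks).

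The 3 chains of C1q stayed within a small range. C1qa (1417381_at) read 2457.7, 2436.7 and 2771.4 at 36 weeks, against 2245, 1884.8 and 1898.6 at 7 weeks. The ages did not overlap, as was true in the higher direction of 23.4% of probe sets above the filter. The mean was 1.27-fold higher at 36 weeks, a log2 difference of 0.34 ± 0.12 (SE, 95% confidence interval 0.072 to 0.61), with a limma adjusted p of 0.0521, just short of the threshold. C1qa passed when only probe sets above the 60th percentile were tested (adjusted p = 0.0441) and without replicate 1 of 7 weeks (0.0361). Over all its alternatives the adjusted p ran from 0.0361 to 0.161.

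C1qc (1449401_at) read 1788.4, 2437 and 2047.4 at 36 weeks, against 1590.3, 1995.6 and 1321 at 7 weeks. Its ages overlapped, with 8 of 9 pairs higher at 36 weeks. The log2 difference was 0.35 ± 0.17 (SE, 95% confidence interval -0.030 to 0.74), close to that of C1qa in size but with a wider spread (adjusted p = 0.143). The size rested on single arrays, running from 0.21 without replicate 3 of 7 weeks to 0.50 without replicate 2 of 7 weeks, with adjusted p from 0.0588 to 0.391.

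The 3 probe sets of C1qb did not point one way. The probe set without a cross-hybridisation suffix (1417063_at) read 1731.8, 1499.8 and 1135.8 at 36 weeks, against 1211.3, 1436 and 1218.9 at 7 weeks, a difference of 0.15 ± 0.18. The brightest, 1434366_x_at, read 1341.4, 2075.2 and 1824.2 at 36 weeks, against 1952.5, 1595.6 and 1536 at 7 weeks. Its difference was 0.028 ± 0.18 and turned to -0.011 with quantile normalization and -0.074 with centring. The dimmest, 1437726_x_at, differed by -0.17 ± 0.24. In all 3 the ages overlapped, and the limma adjusted p lay between 0.541 and 0.920. Probe sets with an _x_at suffix can bind transcripts of related genes. The 95% confidence interval of 1417063_at, -0.24 to 0.55, leaves room for a change as large as that of C1qa.

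**Figure D2:**
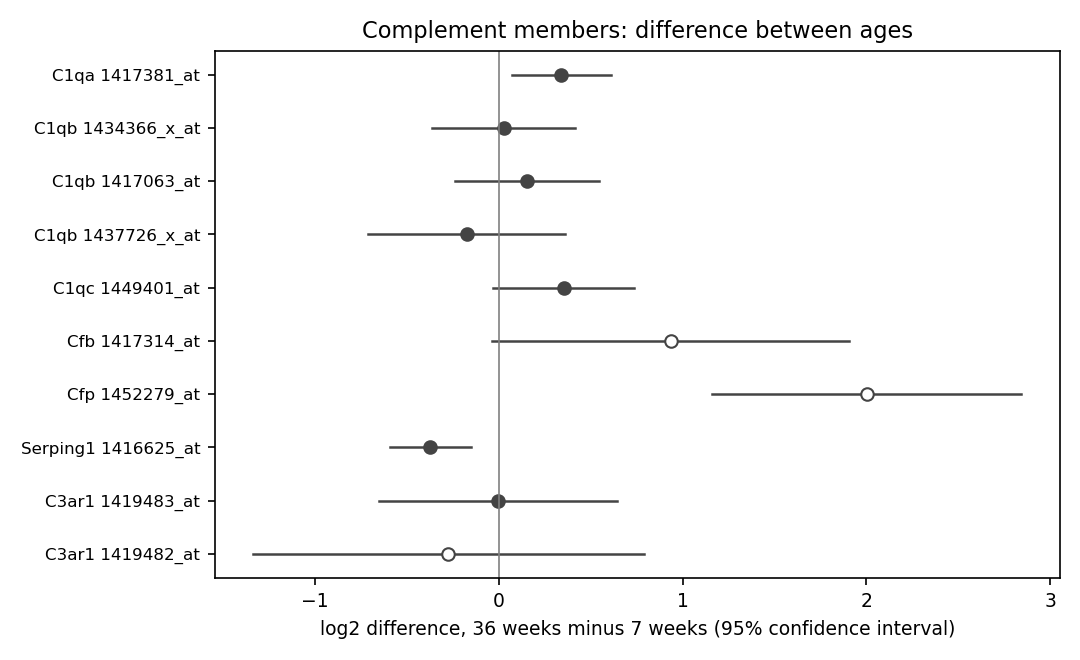
Log2 difference, 36 weeks minus 7 weeks, of the 10 member probe sets, with 95% confidence intervals from limma; filled points come from the fit to probe sets above the filter and open points from the fit to all probe sets. The intervals of Cfp and C1qa lay above 0 and that of Serping1 below 0, and all others included 0.

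Serping1, the serine protease inhibitor that restrains C1r and C1s, was the one member lower at 36 weeks. Its probe set (1416625_at) read 3046.5, 3221.8 and 3377.5 at 36 weeks, against 4306, 4435.3 and 3804.1 at 7 weeks. The highest old array was below the lowest young one, as was true in the lower direction of 23.9% of probe sets above the filter. The mean was 3215.3 ± 165.6 at 36 weeks and 4181.8 ± 333.4 at 7 weeks (SD, n = 3 each). Serping1 fell by 0.37 on the log2 scale (SE 0.10, 95% confidence interval -0.59 to -0.15), with a limma adjusted p of 0.0155. Without replicate 1 of 36 weeks the adjusted p was 0.0508, and without replicate 2 of 7 weeks it was 0.0587. In bulk tissue, fewer cells that make a transcript and less transcript per cell cannot be told apart, and this holds for each gene here.

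C3ar1, the receptor for C3a on myeloid cells, gave no direction. The brighter probe set (1419483_at) read 416.3, 723.9 and 954.7 at 36 weeks, against 646, 752.3 and 607.9 at 7 weeks. The old arrays spread on both sides of the young ones, and the log2 difference was -0.0063 ± 0.29 (SE, 95% confidence interval -0.65 to 0.64). The dimmer one (1419482_at) read 224.2, 319.2 and 643.3 at 36 weeks, against 763, 257.5 and 446.1 at 7 weeks. Its difference was -0.27 ± 0.47, and the 2 probe sets ranked the young arrays differently. A change in either direction of the size seen for Serping1 or C1qa was not detectable with either.

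The other genes of the pathway were taken from a list of 57, by role, of which 40 had a probe set with 1 symbol and 18 had one above the filter. Of these 18, each by its brightest probe set, 5 were higher, 3 were lower and 10 did not pass. Among all 8541 genes so represented 17.1% were higher and 17.2% were lower. The median difference was 0.24 over the 18 genes and 0.018 over all genes.

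Complement receptors and C1q-binding proteins held most of the higher genes, 4 of 7, with 1 lower, against 17.1% and 17.2% of all genes. Itgb2, the beta chain shared by complement receptors 3 and 4 and other leukocyte integrins, read 5093.4, 6900.8 and 5631.4 at 36 weeks, against 660, 562 and 724.3 at 7 weeks. Its ages were far apart, and the log2 difference was 3.08 ± 0.15. C5ar1, the receptor of the fragment C5a on granulocytes and macrophages, rose by 2.04 ± 0.32, with 1151.1, 1773.2 and 1427.6 at 36 weeks, against 469.2, 345.8 and 177.6 at 7 weeks. All 3 of its arrays at 7 weeks lay below the filter level, so it was tested only through its signal at 36 weeks, and its place in these counts follows in part from the filter, while in the fit to all probe sets its limma adjusted p was 0.00246. Cd93, a membrane lectin first studied as a C1q receptor, rose by 0.77 ± 0.15, and Calr, calreticulin, an endoplasmic reticulum chaperone that can bind C1q, by 0.40 ± 0.063. The other Cd93 probe set, below the filter, differed by 0.60 with overlapping ages (limma adjusted p = 0.336 in the fit to all probe sets). C1qbp, a mitochondrial protein named for binding C1q, fell by 0.41 ± 0.074. By their brightest probe sets, adjusted p-values of these 5 genes from limma were between 1.21e-07 and 0.00299. Itgax, the alpha chain of complement receptor 4, differed by 0.20 ± 0.22, and Lrp1, a scavenger receptor, by -0.028 ± 0.11, and neither passed.

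Itgam, the alpha chain of complement receptor 3, lay below the filter and was looked at after its values were seen. Its probe set read 1731, 1267 and 1397.7 at 36 weeks, against 16.1, 22.6 and 32.9 at 7 weeks. The young arrays were near the floor of the signal, so a fold has little meaning. In the fit to all probe sets the limma adjusted p was 2.27e-05. Of the 22 other complement genes below the filter, each by its brightest probe set in that fit, 1 was higher (Itgam) and 1 lower (C8g). Among all probe sets in that fit 9.56% were higher and 9.99% lower.

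Among regulators, 2 of 8 fell and 1 rose, where 17.2% of all genes were lower and 17.1% higher. Clu, clusterin, an inhibitor of the terminal complex and an abundant secreted chaperone, averaged 37192 ± 1673 at 36 weeks and 56395 ± 7027 at 7 weeks (SD, n = 3 each). It fell by 0.59 ± 0.085 by its brightest probe set, and its other 3 probe sets had differences of -0.64, -0.82 and -1.13. Vtn, vitronectin, which also blocks the terminal complex, fell by 0.75 ± 0.12, and its dimmer probe set differed by -0.30 without passing. Sez6, a neuronal protein with complement control domains, rose by 0.77 ± 0.27 (limma adjusted p = 0.0455). Its arrays of 7 weeks read 380.5, 400.7 and 580.6, and 2 of them lay below the filter level. The place of Sez6 in these counts thus follows in part from the filter. Its call was lost with quantile normalization (0.0727), centring (0.0716), no filter (0.0903), a filter on the mean linear signal (0.0570) or the replicate number as a block (0.0794), and without replicate 1 or 2 of 7 weeks (0.115 and 0.110) or of 36 weeks (0.119 and 0.163). The related Sez6l2 differed by 0.33 ± 0.12 without passing by its brightest probe set, and rose by 1.00 by another. Of 5 tested brain and microglia genes 4 were higher (Aldoc, Cbln1, Neurod1 and Gabra6), against 17.1% of all genes. The microglia marker Tmem119 differed by -0.25 without passing. P2ry12 and Sall1, also microglia markers but below the filter, differed by 0.49 and -0.76 and did not pass in the fit to all probe sets. The part of brain cells in the differences of Sez6 and Sez6l2 was not tested. Cd55, decay-accelerating factor, differed by 0.51 ± 0.28 (adjusted p = 0.186). Cd59a, which blocks the membrane attack complex, differed by -0.066 ± 0.18 by its brightest probe set and fell by 1.02 ± 0.19 by the other, so its probe sets disagreed.

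Components of the classical and lectin pathways were mostly dim. Of 10 genes with a probe set, 3 were above the filter and 0 passed by limma (0 also at an unadjusted p under 0.05). Mbl1, a mannose-binding lectin, differed by 0.67 ± 0.35 and Fcna, ficolin A, by 0.15 ± 0.19. Of the alternative and terminal components, 6 genes had a probe set and 0 were above the filter. C8g, the gamma chain of C8, a terminal component, read 131.7, 37 and 45.1 at 36 weeks, against 315.7, 291 and 286.5 at 7 weeks. All its old arrays were below all young ones, as was true in the lower direction of 17.8% of all probe sets. It fell by 1.60 ± 0.38 on the log2 scale, with a limma adjusted p of 0.0173 in the fit to all probe sets. Its old arrays were near the floor of the signal, so this size depends on the offset. Hc, the gene of C5, for which DBA/2J mice are known to carry a null allele, was also among these 6, with 241.9 to 896.9 at 36 weeks and 107.3 to 489.3 at 7 weeks.

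**Figure D3:**
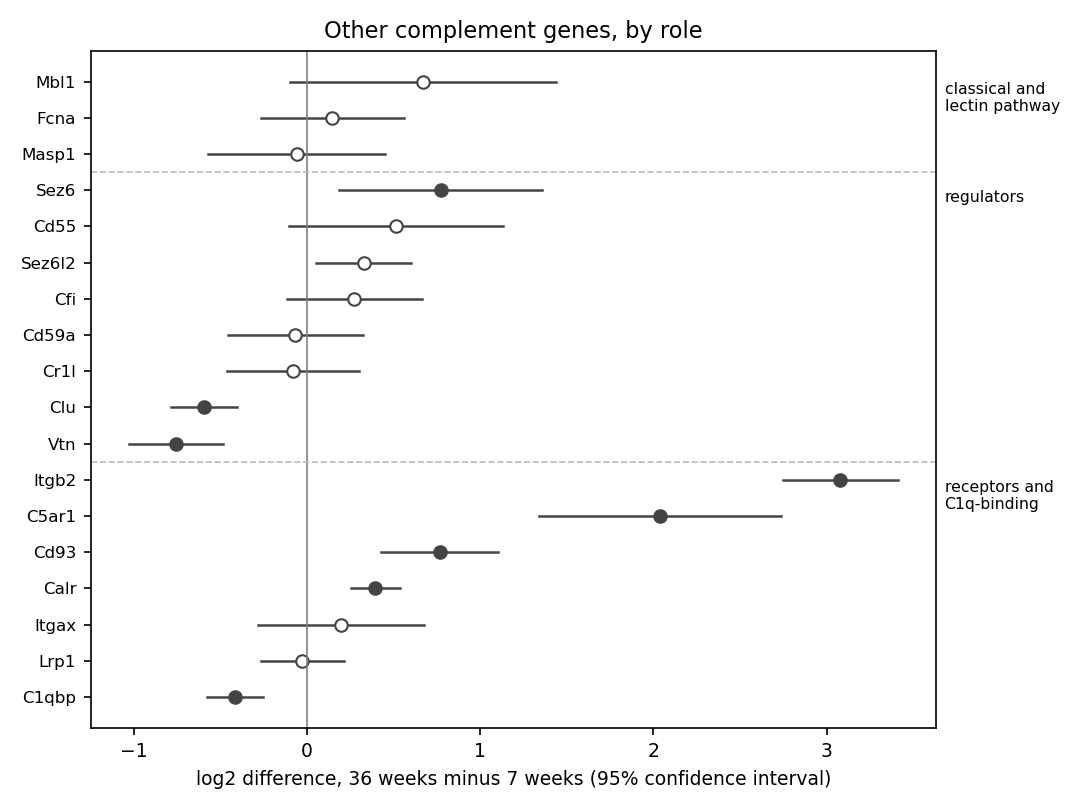
Log2 difference, 36 weeks minus 7 weeks, with 95% confidence intervals, of the 18 other complement genes above the filter, grouped by role; filled points passed the limma test and open points did not. Itgb2 and C5ar1 lay farthest to the right, and Clu and Vtn lay farthest to the left.

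Markers of cell types that make complement moved in the same comparison. Among all genes, each by its brightest probe set above the filter, 17.1% were higher and 17.2% lower. Of 13 tested neutrophil and granulocyte precursor genes 13 were higher, with a median difference of 3.80. Ctsg averaged 354.1 at 7 weeks, below the filter level, so its place in this count follows in part from the filter. The summed signal of this neutrophil and precursor list was 705222 to 750899 at 36 weeks and 50621 to 55474 at 7 weeks. Itgb2, C5ar1 and Cfp are also expressed by these cells, and the part of granulocytes in their differences was not tested. Of 12 tested macrophage genes 6 were higher and 0 lower, with a median of 0.29 and summed signals of 38943 to 41090 at 36 weeks and 25253 to 27154 at 7 weeks. Tyrobp, Mpeg1, Fcgr3 and Folr2 led the higher ones, with differences of 2.31, 1.49, 1.10 and 0.82. At least Tyrobp is also expressed by granulocytes, and whether the other higher genes are specific to macrophages was not tested. Ctss and Cd14 rose by 0.38 and 0.35. Csf1r, Adgre1, Cd68 and Cx3cr1 differed by 0.19, 0.21, 0.24 and 0.20, and Mrc1 and Ms4a7 by -0.24 and -0.53, none of these 6 past the test. Below the filter, Cd163, Fcgr1, Aif1 and Lyve1 differed by -0.16, -0.20, -0.61 and -0.33 and Trem2 by 0.82. None of them passed in the fit to all probe sets. The part of macrophages in the differences of 0.34 for C1qa and 0.35 for C1qc was not tested.

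Of 10 fibroblast genes 6 were lower and 1 higher, against 17.2% and 17.1% of all genes. Their median was -0.62, and summed signals were 60969 to 64452 at 36 weeks and 91610 to 99471 at 7 weeks. Pdgfra averaged 393.7 at 36 weeks, below the filter level, so it was tested only through its signal at 7 weeks. The 7 tested spiral ligament fibrocyte genes were all lower, with a median of -2.00 and summed signals of 62432 to 64557 at 36 weeks and 263580 to 273014 at 7 weeks. Their part in the lower signal of Serping1, which stromal cells make, was not tested. Airway and mucus genes, 9 of 10 higher with a median of 3.18, had summed signals of 567060 to 604373 at 36 weeks and 83946 to 86901 at 7 weeks. Agr2 and Reg3g averaged 338.9 and 392.6 at 7 weeks, below the filter level, so they were tested only through their signals at 36 weeks. This count and median thus follow in part from the filter, and the median over all 12 genes with a probe set was 2.33. Ltf was counted in both this list and the neutrophil list, so the 2 are not separate. Scgb1a1 and Muc5ac, below the filter, differed by 0.63 and -0.16 and did not pass in the fit to all probe sets. Of 7 hepatocyte genes with a probe set, 5 were below the filter, and Fgb, a fibrinogen chain made by the liver, was the dimmest of them. Of the 2 above it, Alb, albumin, differed by 0.54 (adjusted p = 0.108). Ttr, transthyretin, which choroid plexus also makes, fell by 2.00, with 2606.2 to 3442.7 at 36 weeks and 11179.3 to 12893.9 at 7 weeks (limma adjusted p = 4.13e-07). In none of these lists was a marker at 0 on all arrays.

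**Figure D4:**
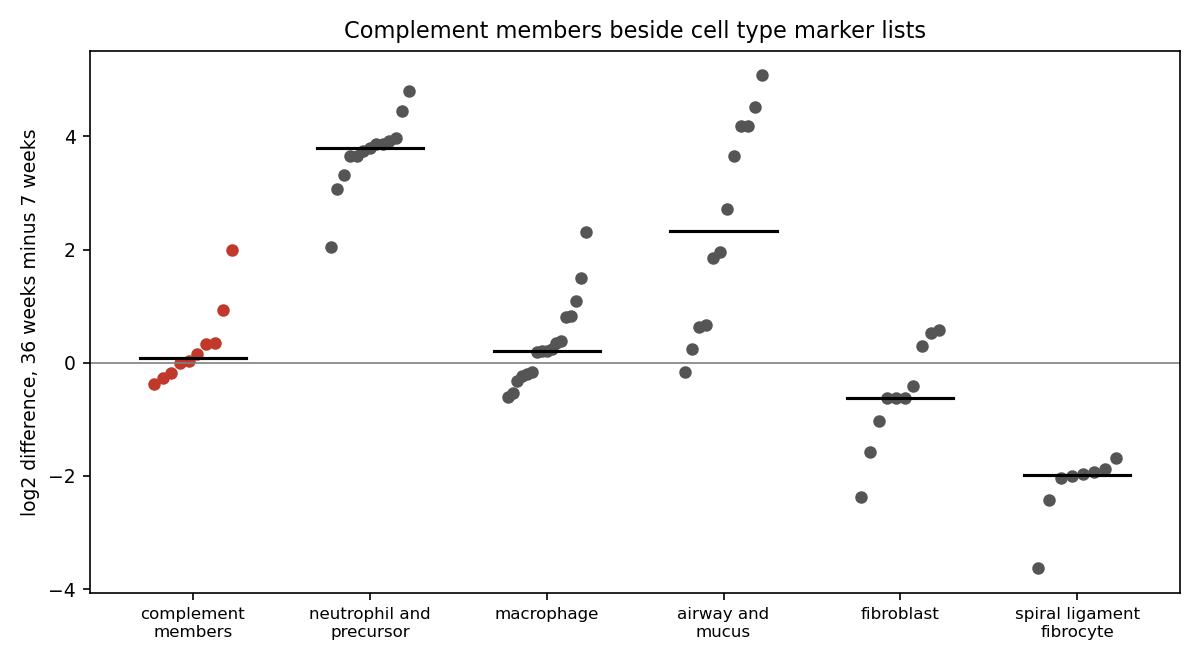
Log2 difference, 36 weeks minus 7 weeks, of the 10 complement member probe sets (red) and of marker genes of 5 cell types (grey, 1 probe set per gene, dim ones included); each point is a probe set and bars are medians. The complement members had a median of 0.091, the neutrophil list 3.80, the macrophage list 0.21 and the spiral ligament list -1.98.

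Genes with a pattern like that of a member were sought by the root mean square difference of centred log2 values over the 6 arrays, among 12437 probe sets of genes outside complement. For the mean of C1qa, C1qb and C1qc, each by its brightest probe set, the nearest were Slc35a1, Eif4e2 and Slc50a1, at distances of 0.032, 0.038 and 0.041. They differed by 0.29, 0.26 and 0.28 between the ages, none past the test. For Serping1 the nearest were Akr1a1, Ndrg2 and Abhd4, at distances of 0.028, 0.028 and 0.030. These fell by 0.39, 0.32 and 0.33. The measure favours genes of the same size of difference and describes these 6 arrays only.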

How the data were processed

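Per the labels' protocols, total RNA was extracted with TRIzol, converted to biotin-labelled cRNA and hybridised to Affymetrix arrays, 1 per sample. The deposited values are intensity values, linear probe-set signals of 1 colour, never negative and not centred. No source used here names the summarising software. The trimmed mean between the 2nd and 98th percentiles was 1489.8 to 1492.5 on every array, so signals had been scaled to it and are relative, on an unknown absolute scale.

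The platform annotation gave 1 symbol to 20380 of the 22626 probe sets, several to 691 and none to 1555. All 7 measured members matched RefSeq GRCm38.p6 by Entrez identifier with the same symbol. Signals were taken as log2(signal + 50), which understates changes of dim probe sets. The probe sets above the 40th percentile of mean log2 value were fitted with limma 3.58.1 (R 4.3.3, lmFit, eBayes with intensity trend), unpaired, 36 weeks minus 7 weeks, two-sided, with Benjamini-Hochberg adjustment over all tested probe sets. The fit was tested on simulated data. An exact permutation test of 3 against 3 arrays cannot go below 0.1 and was not used. Figures used Python 3.11.15 and matplotlib 3.10.9.

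Arrays of 1 age correlated at 0.944 to 0.950 (Pearson's r of log2 signals) and arrays of different ages at 0.895 to 0.903, and no array was a copy of another. The files and labels give no scan date or batch. Named were every member probe set, every other complement gene past the threshold, the 2 others per role with the smallest p, and the 3 genes nearest in pattern. Itgam, C8g, Hc, Cd59a and single marker genes were named after their values were seen. Members and lists were chosen with earlier results of these data known. Alternatives were offsets, scaling, filters, the trend, a replicate block, left-out arrays and the pairwise scheme.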

Additional observations from a re-analysis of the deposited data

How the results depend on the processing

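With 3 arrays per age, small differences of dim probe sets were not resolved. The count of member probe sets higher at 36 weeks was 0, and it was 1 with no filter (Cfp), 1 with a filter at the 60th percentile (C1qa) and 1 with a filter on the mean linear signal (Cfp). That last filter was added once the data had been seen. Cfp passed it only through its signal at 36 weeks, since its arrays of 7 weeks read 131.3, 411 and 198.2. The count of lower members was 1 (Serping1), and 0 in the scheme of all 9 pairs in one direction with a 1.5-fold minimum. Leaving out each array in turn gave 0 to 1 higher and 0 to 1 lower members. Other complement genes that were higher numbered 5, and 3 with the filter at the 60th percentile, where fewer genes were tested. Leaving out arrays gave 4 to 5 higher and 3 to 3 lower. The calls over all tested probe sets were 4558, and 3629 to 4009 without 1 array.

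Of the members' differences, that of C1qb (1434366_x_at), 0.028, turned to -0.011 with quantile normalization and -0.074 with centring, and ran from -0.10 to 0.20 without 1 array. C3ar1 (1419483_at), -0.0063, ran from -0.25 to 0.30 and its dimmer probe set, -0.27, from -0.65 to 0.079. The cause of these turns was not tested. Cfp kept its direction and passed under all its alternatives, from 1.70 to 2.38. Whether the replicate numbers pair the samples is not stated. Deviations of same-numbered arrays correlated at -0.014 to 0.048 and those of differently numbered arrays at -0.051 to 0.054. These values showed no shared effect of the number but cannot exclude a pairing. With the number as a replicate block, 0 members were higher, 1 was lower (Serping1, adjusted p = 0.0309 by limma) and 4297 probe sets passed in all, with 4 other complement genes higher (Sez6 no longer passed) and 3 lower.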
